A study of Mus musculus with 3 samples.

Results

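The Shh locus was examined in a list of GLI3 peaks mapped by ChIP-seq in mouse forelimb buds, of which the study counts 7282 as binding regions. The members were all listed peaks on chromosome 5 from 200 kb beyond the transcription start site (TSS) of Shh to 200 kb beyond the TSS of Lmbr1 (mm10, 28267256 to 29578390). This interval of 1.311 Mb held 12 of the 17149 listed peaks. It contained 7 protein-coding genes, which were in order Rbm33, Shh, Rnf32, Lmbr1, Nom1, Mnx1 and Ube3c. GLI3 was precipitated through a FLAG tag added to the endogenous protein, from E10.5 forelimb buds of 32 to 35 somites on a mixed background, in 2 ChIP replicates of 2 litters each. The control was 1 input library of the same stage. All embryos pooled for these libraries came from the tagged line, although the genotype label reads wild type, and the samples here include no untagged or Shh mutant group. The authors called peaks once from both replicates against input, so no value below carries a replicate error and no difference could be tested against one. The study's methods state a minimum sequencing depth for its ChIP libraries, but the list holds no read totals for single libraries and no expression values with which to check the tissue label against marker genes.

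Shh encodes the Hedgehog ligand that patterns the limb from the zone of polarizing activity, a group of cells at the posterior margin of the bud. Its limb expression depends on an enhancer that lies far from the gene, within an intron of Lmbr1, and other enhancers spread over the gene desert beside Shh drive it in the neural tube, brain, gut and lung. GLI3 acts downstream of the ligand. Without Hedgehog signal it is processed to a repressor, which restricts where limb target genes, and Shh itself, are expressed.

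The promoters of the interval are shown first, because every listed peak of the interval lay at or beside 1 of 4 genes, with 1 peak at Rbm33, 1 at Rnf32, 7 around Mnx1 and 3 at Ube3c. The sequences are RefSeq promoters of 300 bp in mm10, found for 6 of the 7 genes, with none for Shh. They are written 5′ to 3′ on the strand of the gene, with each CpG dinucleotide in capitals.
Rbm33 promoter, chr5:28316939-28317238, plus strand: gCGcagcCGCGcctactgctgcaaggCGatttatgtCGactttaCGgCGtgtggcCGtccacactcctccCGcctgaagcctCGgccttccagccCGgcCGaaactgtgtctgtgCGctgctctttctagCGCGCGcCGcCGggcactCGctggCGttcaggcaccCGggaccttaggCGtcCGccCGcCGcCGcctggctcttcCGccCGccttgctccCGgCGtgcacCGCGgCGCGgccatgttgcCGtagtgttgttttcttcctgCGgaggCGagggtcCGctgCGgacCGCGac
Rnf32 promoter, chr5:29195743-29196042, plus strand: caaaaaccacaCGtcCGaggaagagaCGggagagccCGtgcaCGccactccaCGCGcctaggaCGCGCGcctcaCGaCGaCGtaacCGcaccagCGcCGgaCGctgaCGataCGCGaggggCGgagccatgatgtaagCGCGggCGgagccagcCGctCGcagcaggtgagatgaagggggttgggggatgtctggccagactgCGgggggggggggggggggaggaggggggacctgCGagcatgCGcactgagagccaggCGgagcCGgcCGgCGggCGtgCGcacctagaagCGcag
Mnx1 promoter, chr5:29478421-29478720, minus strand: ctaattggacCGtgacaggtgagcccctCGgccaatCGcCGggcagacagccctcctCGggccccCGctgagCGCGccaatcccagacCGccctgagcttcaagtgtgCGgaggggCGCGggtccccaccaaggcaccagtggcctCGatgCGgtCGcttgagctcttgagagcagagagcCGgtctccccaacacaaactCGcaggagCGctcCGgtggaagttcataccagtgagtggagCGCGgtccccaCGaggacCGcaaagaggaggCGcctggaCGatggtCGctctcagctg
Ube3c promoter, chr5:29568992-29569291, plus strand: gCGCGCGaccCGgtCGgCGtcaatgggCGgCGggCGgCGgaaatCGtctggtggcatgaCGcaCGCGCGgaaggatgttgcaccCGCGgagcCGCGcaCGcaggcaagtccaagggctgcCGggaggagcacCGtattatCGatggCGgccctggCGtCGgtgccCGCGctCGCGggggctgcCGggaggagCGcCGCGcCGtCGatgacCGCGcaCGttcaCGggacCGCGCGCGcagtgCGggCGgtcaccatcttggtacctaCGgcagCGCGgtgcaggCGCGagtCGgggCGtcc
Lmbr1 promoter, chr5:29378341-29378640, minus strand: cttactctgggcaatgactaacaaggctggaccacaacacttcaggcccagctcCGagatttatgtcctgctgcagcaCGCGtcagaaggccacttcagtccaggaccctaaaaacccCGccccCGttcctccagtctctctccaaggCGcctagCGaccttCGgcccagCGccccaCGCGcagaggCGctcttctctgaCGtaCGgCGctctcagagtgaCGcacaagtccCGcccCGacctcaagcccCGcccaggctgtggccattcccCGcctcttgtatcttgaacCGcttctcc
Nom1 promoter, chr5:29434417-29434716, plus strand: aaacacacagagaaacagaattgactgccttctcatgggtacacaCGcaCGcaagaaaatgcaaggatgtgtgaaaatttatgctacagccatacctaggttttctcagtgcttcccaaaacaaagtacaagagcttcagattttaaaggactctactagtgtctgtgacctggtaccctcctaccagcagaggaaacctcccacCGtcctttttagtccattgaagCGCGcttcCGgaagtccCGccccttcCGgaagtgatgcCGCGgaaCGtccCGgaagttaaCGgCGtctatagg
The promoters overlapped by a listed peak were those of Rbm33, Rnf32, Mnx1 and Ube3c, with 41, 36, 26 and 53 CpGs in that order. The promoters of Lmbr1 and Nom1, with 21 and 14, were overlapped by none. The median over all 32851 RefSeq promoters was 7. At least as many CpGs as at Ube3c were held by 0.451% of promoters, and the shares were 3.46% for Rbm33, 6.23% for Rnf32, 16.9% for Mnx1, 24.8% for Lmbr1 and 36.3% for Nom1. Across the genome, 1.57% of promoters with 0 to 9 CpGs overlapped a listed peak, compared with 22.7% of those with 10 to 19, 41.8% of those with 20 to 29, 50.4% of those with 30 to 39 and 52.8% of those with 40 to 67. The Lmbr1 promoter, without a peak, fell in the same class of 20 to 29 CpGs as the Mnx1 promoter, with one. None of the 6 promoters held a GLI motif, here a match to GACCACCCA or its reverse complement TGGGTGGTC with at most 1 mismatch, which was found in 6.74% of all promoters. The Nom1 promoter held 3 matches to the ETS motif ACCGGAAGT with at most 1 mismatch, on either strand, and such a match was present in 8.57% of all promoters.

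To ask whether GLI3 was found at the gene for the ligand, peaks were sought around Shh (28456815 to 28467256, minus strand). No listed peak lay within 100 kb of its TSS. The nearest was the peak at the Rbm33 promoter, 150.2 kb away on the downstream side. Of 21851 protein-coding genes, 22.4% had their nearest listed peak at least as far away, and the median distance was 31.8 kb. Each peak carries a false discovery rate (FDR) computed by the peak caller, and an FDR under 0.05 is the threshold of the study. Of the same genes, 39.0% were at least as far as Shh from a peak under it. Distances of this size were therefore common in the list. In whole limb buds, binding in few cells and weaker binding in many cannot be told apart, and a site missing from the list is one that was not detected at this depth.

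The gene desert between Shh and Rnf32 was likewise without listed peaks. It spans 728.7 kb and contained 0 listed summits. The stretch free of listed peaks ran further, for 878.5 kb from the Rbm33 promoter to the Rnf32 TSS. Gaps between neighbouring listed peaks had a median of 39.8 kb, and 2.97% of the 17123 gaps were as long as this one. The total length of gaps this long nevertheless came to 36.6% of the placed sequence. Counting only peaks with an FDR under 0.05, the gap reached from the Rbm33 promoter to the Mnx1 promoter, 1161 kb, and gaps as long came to 50.04% of the placed sequence. Shh, the desert, Rnf32, Lmbr1 and Nom1 all lay inside it.

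**Figure D1:**
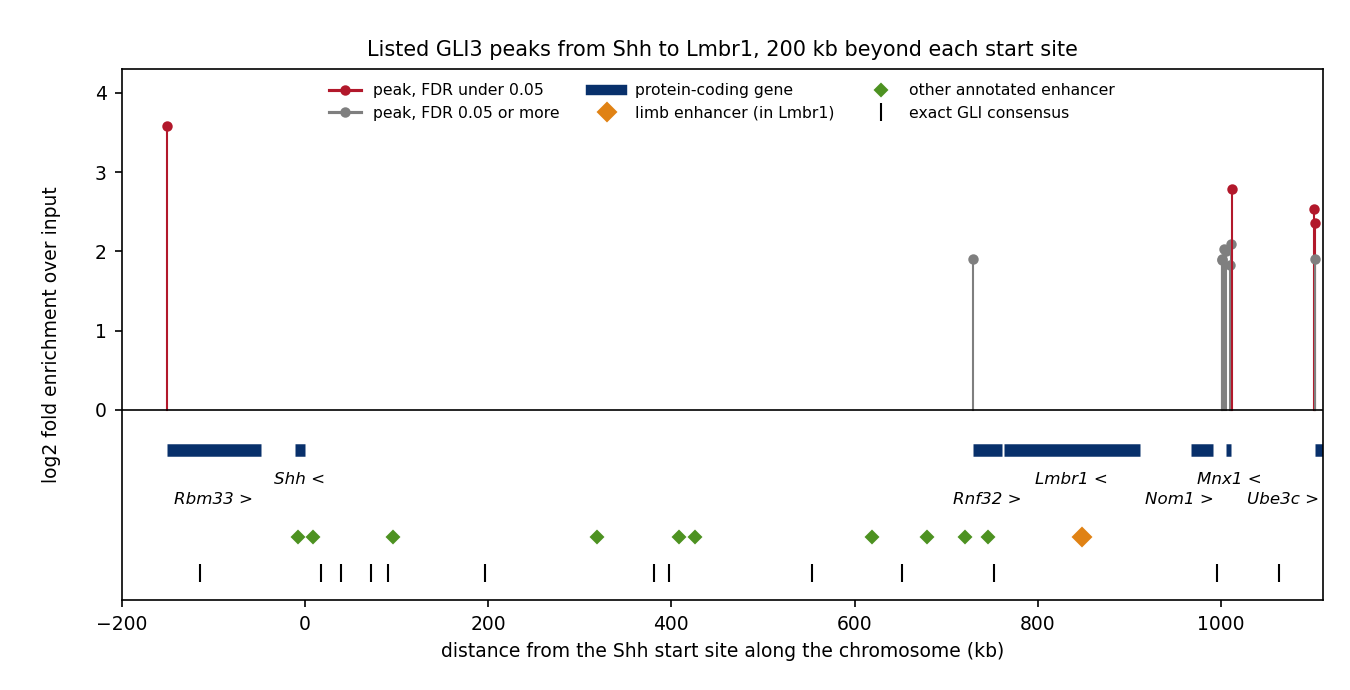
Map of the interval by distance from the Shh TSS (kb, horizontal), with the largest log2 fold enrichment over input of each listed peak (vertical, red for FDR under 0.05 and grey for the rest), the span of each protein-coding gene (blue, arrowheads for the strand), annotated enhancers (diamonds) and exact GLI consensus matches (ticks). The 12 peaks stand at the Rbm33, Rnf32, Mnx1 and Ube3c ends, and none stands over Shh, the desert or Lmbr1.

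Annotated enhancers were examined next. RefSeq lists 11 experimentally tested enhancers in the interval, 3 of them within 100 kb of the Shh TSS, and 0 of the 11 overlapped a listed peak. The limb enhancer, named zone of polarising activity regulatory sequence 1, lies at 29314497 to 29315862 in intron 5 of Lmbr1, 847.9 kb from the Shh TSS. The nearest listed peak was the one at the Rnf32 TSS, 118.3 kb away, and the nearest with an FDR under 0.05 was at the Mnx1 promoter, 162.5 kb away. Of the 11 enhancers, the one closest to a listed peak was mammal fish conserved sequence 4, an enhancer of the epiglottis and pharynx, 7.507 kb from the Rnf32 peak. The enhancers nearest to Shh itself, in its intron 2 and at the floor plate enhancer 1, were 141.3 kb and 158.5 kb from any listed peak.

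The limb enhancer was set beside other enhancers with annotated limb activity. Of 184 such enhancers in the genome, 125 (67.9%) overlapped a listed peak and 95 (51.6%) overlapped a peak with an FDR under 0.05, so that the Shh limb enhancer was among the 59 without a listed peak. It is shorter than most, with 1366 bp against a median of 2518 bp. Among the 55 limb enhancers of at most 2 kb, 72.7% overlapped a listed peak and 49.1% a peak with an FDR under 0.05. Over all 813 annotated enhancers of any tissue, the shares were 27.6% and 18.8%. Many of these elements were chosen for testing by conservation or chromatin marks in their source studies, so the shares describe that catalogue.

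The sequence of the enhancers was searched for GLI motifs. The limb enhancer held 0 matches with at most 1 mismatch, and 2 copies of the E-box CATCTG on either strand, a hexamer of the kind bound by bHLH factors such as HAND2. It held 0 matches to the ETS motif and 0 to the HOX13 motif CAATAAA as defined here. Of the 11 enhancers, only that of lung and gut held a GLI match with at most 1 mismatch, and none held the exact consensus. Lack of a match says only that these letters were not found in these sequences.

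Exact matches to the consensus were present elsewhere in the interval. There were 13, or 0.992 per 100 kb compared with 0.700 per 100 kb over the genome, and 10 of them lay between the Shh and Lmbr1 TSSs. None of the 13 was within a listed peak, and their distances to the nearest one ran from 5.151 kb to 347.7 kb. Over the genome, 2.17% of 18532 exact matches lay within a listed peak and 1.64% within a peak with an FDR under 0.05. A consensus match without a listed peak was thus the usual case in this list. The matches nearest to Shh, to the limb enhancer and to a listed peak are printed with 15 bases on each side (mm10, plus strand, consensus or its reverse complement in capitals) to show sites with the full consensus at which no peak was listed.
Match nearest to the Shh TSS, chr5:28484547-28484585: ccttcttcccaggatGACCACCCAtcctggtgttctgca
Match nearest to the limb enhancer, chr5:29219819-29219857: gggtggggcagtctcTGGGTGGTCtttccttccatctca
Match nearest to a listed peak, chr5:29462576-29462614: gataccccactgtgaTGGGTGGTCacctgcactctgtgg
The first lies 17.31 kb upstream of the Shh TSS, in an intron of the noncoding RNA gene 9530036O11Rik. The second is in an intron of Rnf32, 94.66 kb from the limb enhancer. The last is intergenic between Nom1 and Mnx1, 5.151 kb from the outermost peak of the Mnx1 group.

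Lmbr1 (29229802 to 29378390, minus strand), a membrane protein gene best known as host of the limb enhancer, had 0 listed peaks over its 148.6 kb. All 16 introns were free of them, the longest being intron 5 with 30.85 kb, which holds the enhancer. Its promoter also had none. Of 2492 protein-coding genes of at least 100 kb, 39.9% had no listed peak in their body, so Lmbr1 was not unusual in this respect. The gene held 0 exact consensus matches. The listed peak nearest to any of its TSSs was 89.43 kb away, at the far side of Nom1, and the nearest with an FDR under 0.05 was 100.3 kb away, just outside the 100 kb used to assign peaks to genes.

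Rnf32 and Nom1 flank Lmbr1. Rnf32, which encodes a RING finger protein, had a single listed peak of 150 bp at 29196000 to 29196149, with its summit 6 bp inside the TSS, in the 5′ untranslated region. Its log2 fold enrichment of ChIP over input, taken where it was largest within the peak, was 1.90 (3.74-fold), with an FDR of 0.789 and rank 14873 of 17149 by enrichment score. It was exceeded or equalled by 86.9% of listed peaks, and was the only listed peak between the Shh and Lmbr1 TSSs. Enrichment at Rnf32 was thus slight and did not pass the threshold. Nom1, which encodes a nucleolar protein, had no listed peak in its body or promoter. The nearest was 33.16 kb from its TSS and the nearest with an FDR under 0.05 was that of the Mnx1 promoter, 44.05 kb away.

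Most listed peaks of the interval were grouped around Mnx1 (29473034 to 29478470, minus strand), which encodes a homeobox factor of motor neurons and pancreas. There were 7 within 11.15 kb. Summits were treated as 1 group where neighbours were at most 5 kb apart, and by this measure 72 of 12393 groups in the genome (0.581%) held at least 7 listed peaks. The strongest peak of the Mnx1 group covered the promoter at 29478350 to 29478899, with its summit 242 bp upstream of the TSS. Its log2 fold enrichment was 2.78 (6.89-fold), its FDR 0.000315 and its rank 3068. It was the only peak of the 7 with an FDR under 0.05. Across the 72 groups of this size the median was 3 such peaks, and 14 of them held 1 or none. The median of their highest log2 fold enrichment was 3.05, and 22 of the 72 had a lower value than the Mnx1 group.

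The other peaks of the group were weaker and followed the gene in the direction of transcription. The next peak, at 29477650 to 29478049, had its summit 588 bp inside the gene in the coding part of the first exon, and reached a log2 fold enrichment of 2.10 with an FDR of 0.244. A peak in the first intron, 1903 bp from the TSS at 29476500 to 29476649, had the lowest enrichment of the interval, with a log2 of 1.82 and an FDR of 1. The remaining 4 lay beyond the 3′ end of Mnx1, between it and Nom1. Their summits were 5923, 7973, 10113 and 10648 bp from the Mnx1 TSS, with log2 fold enrichments of 2.01, 2.03, 1.91 and 1.89 and FDRs of 0.461, 0.438, 0.782 and 0.799. The 6 weaker peaks thus spanned only 1.82 to 2.10 on the log2 scale, below the promoter peak. The Poisson p-value gave another order among them. The peak 5923 bp from the TSS had a −log10 of 9.72, which 48.8% of listed peaks reached, against 5.05 to 7.48 for the other 5, and the promoter peak had 16.6.

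**Figure D2:**
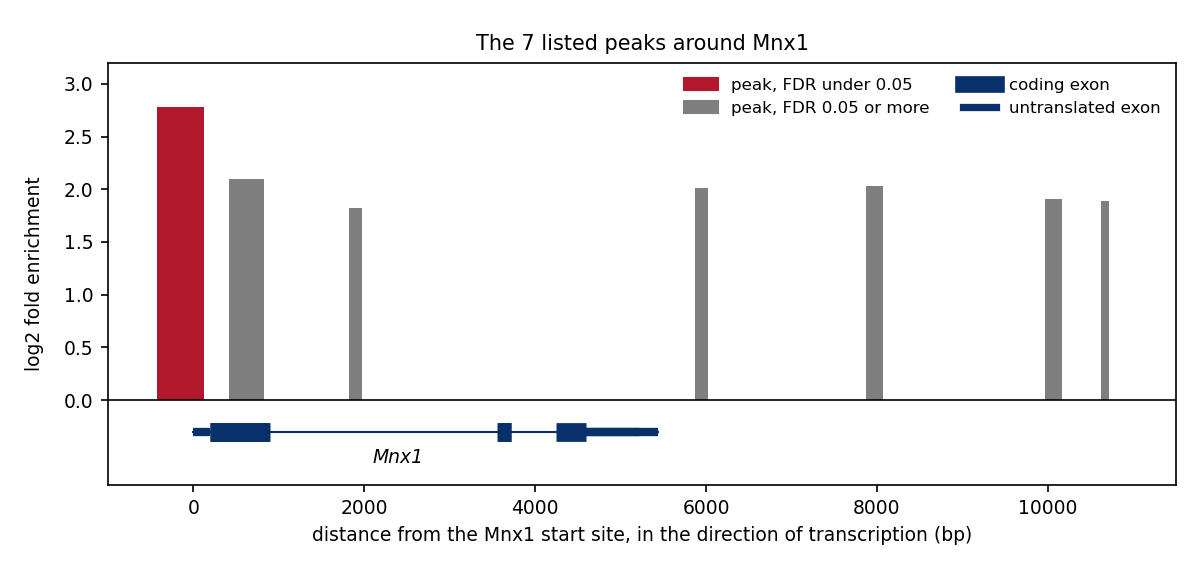
The 7 listed peaks around Mnx1 by distance from its TSS in the direction of transcription (bp, horizontal), each bar as wide as the peak and as high as its largest log2 fold enrichment over input, above the gene model (thick blocks coding, thin blocks untranslated). The promoter peak at 2.78 (red) has an FDR under 0.05, and the other 6 (grey) lie between 1.82 and 2.10.

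At the ends of the interval, promoter peaks were found at Rbm33 and Ube3c. The peak at Rbm33, which encodes an RNA-binding protein, was the strongest of the 12. It covered 800 bp at 28316750 to 28317549, with its summit 110 bp upstream of the TSS, and reached a log2 fold enrichment of 3.59 (12-fold) with an FDR of 0 as listed and rank 635. Only 3.71% of listed peaks were as enriched. It was also the peak nearest to Shh, but was at the TSS of another gene. Ube3c, which encodes a HECT ubiquitin ligase, had 3 listed peaks within 0.85 kb across its promoter. They lay at 29568900 to 29569099 with a log2 of 2.53 (FDR 0.00706), at 29569200 to 29569399 with 2.36 (FDR 0.0374), and at 29569500 to 29569749 with 1.91 (FDR 0.782). The values fell from the upstream to the downstream peak. All 3 were under 10 kb from the upper edge of the interval, and the nearest listed peak beyond that edge was 248410 bp further on. On the Shh side the nearest peaks beyond the interval were a pair at the promoter of En2, 101007 and 101407 bp outside, with log2 fold enrichments of 1.98 and 2.26 and FDRs of 0.470 and 0.0709.

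As a set, most interval peaks stood low in the list, and 8 of the 12 were below its median enrichment. An FDR under 0.05 was reached by 4 of 12 (33.3%), compared with 42.5% of all listed peaks. These 4 were the Rbm33 peak, the Mnx1 promoter peak and the upstream and middle peaks of Ube3c. The weakest of them, the middle Ube3c peak at 2.36, and the strongest of the others, the Mnx1 first exon peak at 2.10, were on either side of the threshold. The median log2 fold enrichment was 2.02 over the 12 (1.82 to 3.59) and 2.23 over all listed peaks (1.69 to 6.37). For peaks with an FDR under 0.05, the medians were 2.66 over the 4 and 2.69 over all 7282. The 12 had a median length of 200 bp, against 250 bp for the list.

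**Figure D3:**
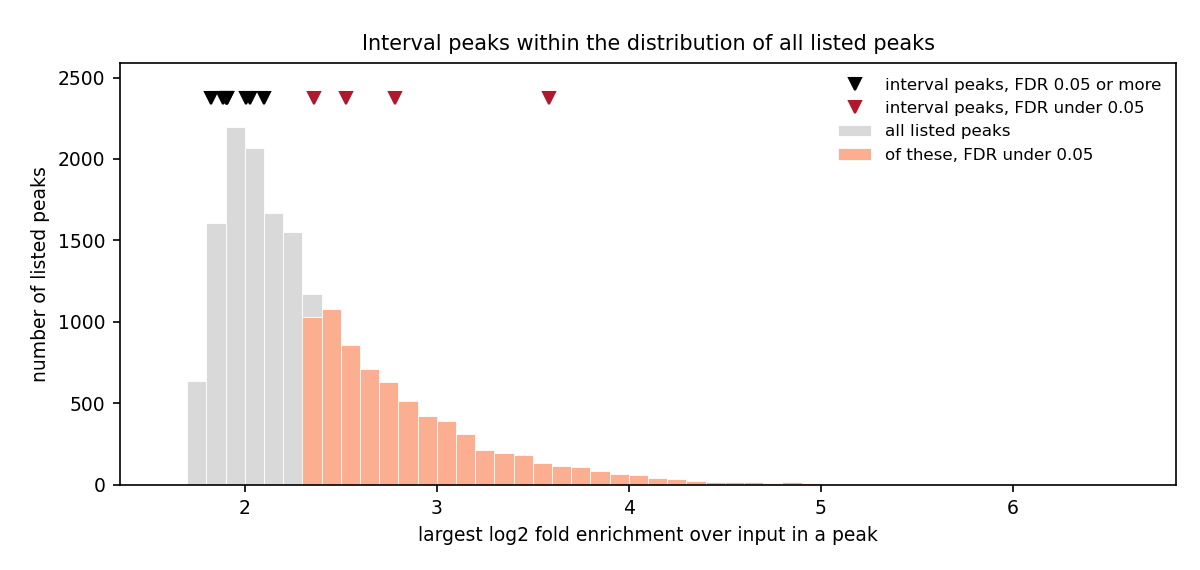
Number of listed peaks (vertical) by largest log2 fold enrichment over input (horizontal, bins of 0.1), for all 17149 listed peaks (grey) and those with an FDR under 0.05 (orange), with triangles for the 12 interval peaks at their own values. The 8 black triangles crowd the low end from 1.82 to 2.10, and the 4 red ones stand between 2.36 and 3.59.

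With the 200 kb flanks, the density of peaks with an FDR under 0.05 was near that of the genome. There were 3.05 such peaks per Mb, compared with 2.75 over the genome and 3.13 over chromosome 5. Listed peaks of any FDR were denser, at 9.15 per Mb compared with 6.48 over the genome and 7.23 over chromosome 5. In 1997 adjoining windows of the same length, the median was 6 listed peaks and 2 with an FDR under 0.05. Of these windows, 37.5% held at least 4 peaks with an FDR under 0.05 and 27.8% held at least 12 listed peaks. The density of peaks with an FDR under 0.05 depended on the flanks, which held all 4 of them. Relative to the genome it was 1.11 with 200 kb flanks, 0.761 with 500 kb, 0.327 with 100 kb and 0 between the Shh and Lmbr1 TSSs. The value with 100 kb rests on the Mnx1 promoter peak, which overlapped the edge while its summit lay beyond it. The peaks were concentrated in few places, since merging those within 1 kb of each other left 7.

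Position and sequence were compared with the list as a whole. Of the 12 peaks, 7 overlapped a promoter window from 2 kb before to 1 kb after a TSS, including all 4 with an FDR under 0.05. Of all peaks under that threshold, 52.6% were at promoters, and of all listed peaks 48.1%. No interval peak held a GLI motif within 250 bp to either side of its summit, compared with 17.9% of listed peaks and 20.8% of those with an FDR under 0.05. The 12 peaks lie in only 7 separate places, and whether their count differs from these shares was not tested. The other motifs were searched on both strands of the same windows. The E-box was found in 3 of 12 windows, compared with 30.2% of listed peaks. The ETS motif was found in 2 windows, those of the upstream and middle Ube3c peaks, which share 1 match at 29568973 to 29568981. The HOX13 motif was found in 2, both beyond the 3′ end of Mnx1. Among all listed peaks the ETS and HOX13 shares were 10.2% and 7.34%. Summit windows of the interval had a median GC content of 65.0% and a median ratio of observed to expected CpG of 0.808, compared with 55.9% and 0.555 over the list. The interval itself had a GC content of 43.0%. Within the set, the Rbm33, Rnf32 and Ube3c summits ranged from 63.5% to 74.3% GC and the 4 peaks beyond Mnx1 from 41.5% to 65.1%.

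The interval was set beside other limb loci defined in the same way, 200 kb beyond the outer TSSs. For Grem1 and Fmn1, which share a regulatory landscape for the BMP antagonist Gremlin, 6 of 11 listed peaks had an FDR under 0.05, or 7.24 per Mb. Between Evx2 and Hoxd1, at the HoxD cluster, 27 of 54 did (53.6 per Mb), and around the receptor gene Ptch1, 10 of 15 did (25 per Mb). All of these densities were above the 3.05 per Mb of the Shh interval. The 3 intervals were shorter, at 0.8309, 0.5034 and 0.4 Mb in the order given, compared with 1.311 Mb. Distal peaks with an FDR under 0.05, outside promoter windows, numbered 5, 13 and 8 in these 3 intervals and 0 in the Shh interval. Between the outer TSSs, 1 listed peak was found from Shh to Lmbr1, compared with 10 from Grem1 to Fmn1 and 41 from Evx2 to Hoxd1. The Ptch1 interval was set around 1 TSS and has no such span, and 1 listed peak lay on that TSS. A GLI motif was present in 18.2%, 18.5% and 46.7% of listed peaks in the other intervals, in the order given. These intervals were chosen as known Hedgehog responsive loci, so the contrast is a description.

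The wider pathway was described by gene lists, counting a gene where a peak with an FDR under 0.05 lay within 100 kb of a TSS. Of the 7 genes of the interval, 4 had one (Rbm33, Nom1, Mnx1 and Ube3c), or 57.1%, close to the 52.1% of all 21851 protein-coding genes. Shh, Rnf32 and Lmbr1 had none. Of the 45 genes on the 4 lists, 39 (86.7%) had one. Among 6 genes for Hedgehog ligands and their release, 4 did. Shh and Ihh, the ligand of the growth plate, had no listed peak of any FDR within 100 kb, and the third ligand, Dhh, had its best peak 26.38 kb away with a log2 fold enrichment of 3.30. Of the genes that release or modify the ligand, the acyltransferase Hhat had the highest value of this list, 4.56, at 84.58 kb.

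Genes for reception and transduction of the signal all had such a peak, with 7 of 7 receptors and co-receptors and 5 of 5 GLI factors and their regulators. The best ranked were at Ptch1, the receptor, with a log2 fold enrichment of 6.05 at 0.687 kb, and at Gli1, with 5.76 at 0.342 kb. Both held a GLI motif. Of 27 known upstream regulators of Shh in the limb bud, 23 did. The highest was the peak shared by Hoxd13, Hoxd12, Hoxd11 and Hoxd10 at 4.31, and those without were Etv5, Meis1, Bmp4 and Aldh1a2. For Hand2, a bHLH activator of the limb enhancer, the best peak was 12.95 kb from the TSS with a value of 3.45 and a GLI motif. For Grem1, which maintains the feedback between Shh and the apical ridge, it was 2.70 at 90.37 kb. Peaks under the threshold were thus within 100 kb of most of these regulators and not of Shh. The share over all protein-coding genes was 52.1%, so a gene without such a peak was common. Counts for neighbouring Hoxd genes rest on the same peaks.

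**Figure D4:**
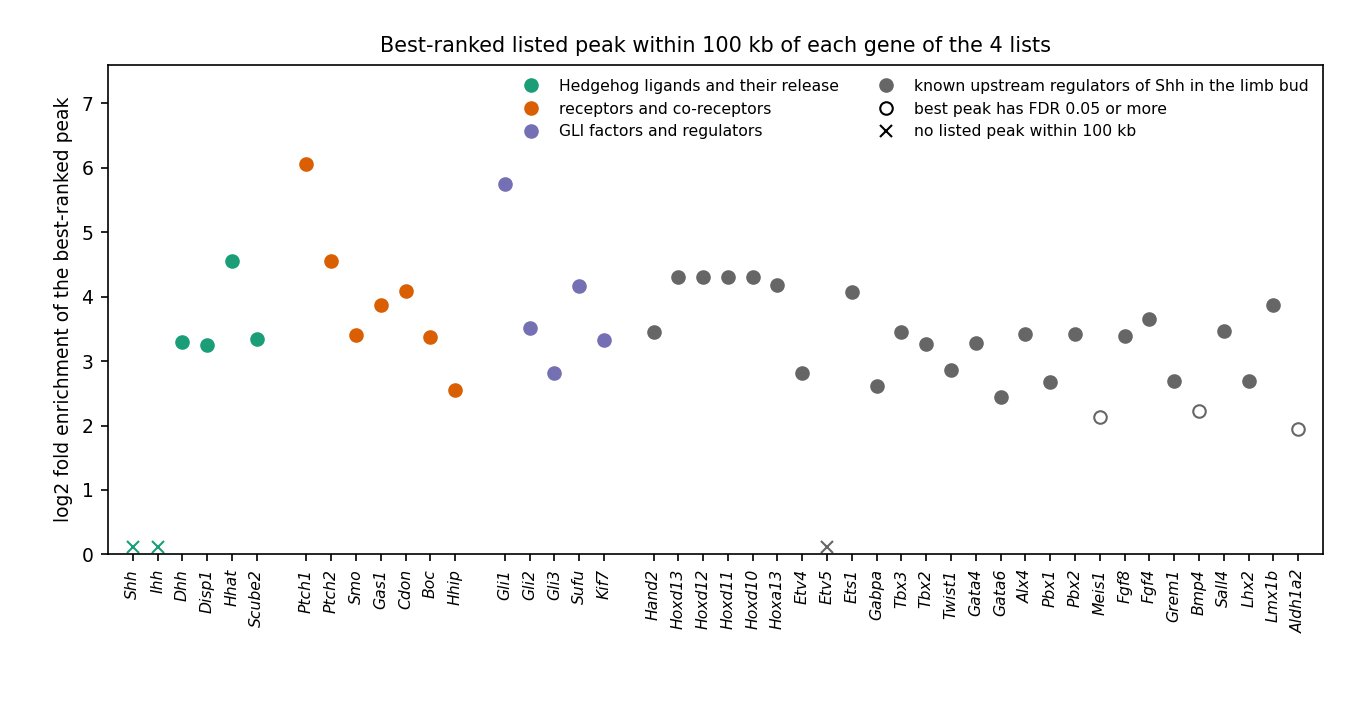
Largest log2 fold enrichment over input (vertical) of the best-ranked listed peak within 100 kb of a TSS for each of the 45 genes on the 4 lists (horizontal, colour by list), filled where a peak with an FDR under 0.05 lies within that distance and open where none does. Crosses at the bottom mark Shh, Ihh and Etv5, which had no listed peak within 100 kb and so have no value.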

How the data were processed

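GLI3-FLAG ChIP-seq was performed by the authors on forelimbs of pooled E10.5 embryos with a tagged Gli3 allele, with 15 PCR cycles per library. The submitters' processing notes name Bowtie2 2.2.5 and mm10, and the study's methods name CisGenome for peak calling from both replicates. The single deposited list is attached to the first ChIP replicate and was taken as that joint call. Each row of the deposited list gives a log2 enrichment relative to input (the maximum within the peak), an FDR (a q-value), a −log10 Poisson p-value capped at 100, and a T score that sets the rank. These are the authors' values and were only counted, ranked and described. A value of log2 is a maximum over the 50 bp steps of a peak and so tends to be high in long peaks. Peaks with an FDR under 0.05 followed the study's threshold. The methods state a minimum sequencing depth for all ChIP libraries, but the list holds no read counts, so no interval or detection floor is given.

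The positions matched GRCm38.p6, with 0 ends beyond a chromosome, and 5 peaks on unplaced sequence were left out where sequence was needed. Genes came from GENCODE M21 (basic set), and enhancers and promoters from RefSeq. Motifs were searched on both strands within 250 bp of each summit, with Python 3.11.15, pandas 2.3.3, numpy 2.4.6 and pysam 0.24.0, in scripts tested on simulated data. By rule, the text names the 7 genes of the interval, the gene of the TSS nearest to each peak, and the list genes with the best-ranked peak or with none within 100 kb. Dhh, Hand2, Grem1, En2 and 9530036O11Rik are named outside the rule and were chosen after their values were seen, as were the CpG classes of promoters and the 2 kb limit on enhancers. The members and lists were chosen with earlier results of these data known. Alternatives changed the flank, the FDR threshold, the motif and its window, the promoter definition, the distances and the background.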

Additional observations from a re-analysis of the deposited data

How the results depend on the processing

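For the 7 results, 29 alternatives were run, and 20 counts or densities stayed within 1.5 times the value reported. Among these 20 are the alternatives for the GLI motif count, 0 throughout, and for the promoter count, 7 throughout. The counts and densities outside the 20 moved with the flank. With no flank, from the Shh TSS to the Lmbr1 TSS, the interval held 1 listed peak and 0 with an FDR under 0.05, so that its density relative to the genome was 0. With 100 kb it held 1 peak with an FDR under 0.05, at a relative density of 0.327, compared with 1.11 at 200 kb. That peak, at the Mnx1 promoter, overlapped the edge with its summit beyond it. The median log2 fold enrichment, 2.02, was 1.90 with no flank, 1.96 with 100 kb, 2.06 with 500 kb and 2.66 for peaks with an FDR under 0.05 alone. No interval peak held a GLI motif under any motif setting run. The listed genes with a peak numbered 35 of 45 within 50 kb and 42 within 250 kb, while the share over all protein-coding genes went from 38.2% to 70.4%. With an FDR under 0.01 they numbered 38, against 42.9% of all genes. No paired analysis was possible because peaks were called once from the pair of ChIP libraries, and leaving out each replicate was not run for the same reason. How far depth limits the weaker peaks was not tested.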
